A study of Mus musculus with 8 samples.

Results

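Cell cycle genes were examined in RNA-seq of Lewis lung carcinoma (LLC) cells grown in culture, a mouse lung carcinoma line. They are 42 genes that act in G1, S phase and mitosis, out of 55487 genes in the count table, and all 42 were found. The list was fixed by symbol, with earlier results of these data known. The study made a knockout of Ago2, the Argonaute protein that binds microRNAs and guides them to messenger RNAs, and asked what its loss changes in tumor cells. There were 4 wild-type and 4 ΔAgo2 libraries, labelled as biological replicates with no treatment named and all given batch 1. According to the study's methods, the knockout was made by lentiviral CRISPR-Cas9 with puromycin selection and cells were cloned by single-cell sorting. The labels do not say whether the sequenced ΔAgo2 cells were 1 clone or several, so a difference between genotypes cannot be told apart from a difference between clones.

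The cell cycle runs in a fixed order of gene programs. In G1, D-type cyclins activate Cdk4 and Cdk6, which phosphorylate the retinoblastoma protein and free E2F factors to switch on genes for DNA replication. In S phase the MCM helicase unwinds DNA, PCNA clamps the polymerases to it, and ribonucleotide reductase and thymidylate synthase supply nucleotides. In G2 and mitosis, B-Myb and FoxM1 with the MuvB complex drive genes of chromosome segregation, many of which carry a CHR element near their start. Cells that cycle faster, or spend longer in one phase, show more RNA of that phase's genes. In bulk RNA, fewer cells in a phase and less RNA per cell cannot be told apart.

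The 42 genes fall into 7 role groups, and the letters that these programs are known to use lie near many of their starts. Promoter windows of 300 bases, 250 before to 50 after the start of transcription (RefSeq, GRCm38.p6), were found for 34 of the 42 genes. The E2F letters searched were TTTCCCGC, TTTCGCGC, TTTGCCGC and TTTGGCGC, on both strands. They were present in 6 of 7 origin licensing and MCM genes with a window, against 2.26% of all 32851 mouse windows. The CHR letters TTTGAA or TTCGAA, on both strands, were present in 5 of 6 genes of mitotic kinases and checkpoint proteins and in 4 of 5 kinetochore and chromosome genes, against 19.2% of all windows. The CCAAT letters were in 25 of 34 genes, against 37.4% of windows. In Mcm3 and Cdt1 the E2F letters, and in Bub1, Aurka, Plk1 and Cenpf the CHR letters, lay only after the start. All of these are matches of letters and were not tested as binding sites.

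The windows of 6 genes are shown from 250 bases upstream up to the start, 5′ to 3′ on the gene's strand, because they stand for both programs and for genes described below. Capitals mark E2F and CHR letters, and where matches on both strands overlap, as in Mcm5 and Mcm6, the capitals run on. Mcm5 (chr8:75109259-75109508, plus strand) and Mcm6 (chr1:128359706-128359955, minus strand) encode subunits of the MCM helicase. Their E2F letters begin 153 and 149 bases upstream in Mcm5, and 110, 106 and 47 bases upstream in Mcm6.
Mcm5: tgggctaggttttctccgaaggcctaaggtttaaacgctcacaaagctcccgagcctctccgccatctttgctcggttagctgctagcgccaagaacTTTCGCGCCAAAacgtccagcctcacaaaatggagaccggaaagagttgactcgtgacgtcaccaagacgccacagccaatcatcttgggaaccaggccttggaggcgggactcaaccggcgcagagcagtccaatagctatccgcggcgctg
Mcm6: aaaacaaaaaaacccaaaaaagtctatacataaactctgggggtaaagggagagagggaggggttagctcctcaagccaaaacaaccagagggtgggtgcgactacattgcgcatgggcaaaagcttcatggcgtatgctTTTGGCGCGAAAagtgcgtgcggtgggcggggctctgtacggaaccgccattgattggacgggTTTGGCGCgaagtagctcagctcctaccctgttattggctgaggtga
Cdc25a (chr9:109875329-109875578, plus strand) encodes the phosphatase that activates Cdk2 at S phase entry, and has E2F letters 67 bases upstream. Cdk1 (chr10:69352913-69353162, minus strand), the kinase of mitotic entry, has E2F letters 131 bases upstream and CHR letters 71 and 15 bases upstream.
Cdc25a: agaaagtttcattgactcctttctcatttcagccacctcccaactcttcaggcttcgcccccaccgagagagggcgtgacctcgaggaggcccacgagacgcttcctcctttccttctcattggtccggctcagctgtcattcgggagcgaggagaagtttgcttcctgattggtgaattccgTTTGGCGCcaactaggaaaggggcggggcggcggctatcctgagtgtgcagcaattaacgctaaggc
Cdk1: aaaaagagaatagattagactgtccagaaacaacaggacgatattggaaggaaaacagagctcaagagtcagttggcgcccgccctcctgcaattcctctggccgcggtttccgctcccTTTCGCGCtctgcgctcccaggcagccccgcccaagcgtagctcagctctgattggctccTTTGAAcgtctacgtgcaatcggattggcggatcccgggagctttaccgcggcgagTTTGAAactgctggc
Cdc20 (chr4:118437344-118437593, minus strand), an activator of the anaphase-promoting complex, and Kif11 (chr19:37376132-37376381, plus strand), the motor that pushes spindle poles apart, carry CHR letters only, 18 and 19 bases upstream.
Cdc20: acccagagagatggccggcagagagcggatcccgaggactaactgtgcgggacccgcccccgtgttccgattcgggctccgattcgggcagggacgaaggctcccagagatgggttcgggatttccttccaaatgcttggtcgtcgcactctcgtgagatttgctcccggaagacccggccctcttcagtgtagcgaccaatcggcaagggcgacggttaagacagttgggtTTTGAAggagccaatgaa
Kif11: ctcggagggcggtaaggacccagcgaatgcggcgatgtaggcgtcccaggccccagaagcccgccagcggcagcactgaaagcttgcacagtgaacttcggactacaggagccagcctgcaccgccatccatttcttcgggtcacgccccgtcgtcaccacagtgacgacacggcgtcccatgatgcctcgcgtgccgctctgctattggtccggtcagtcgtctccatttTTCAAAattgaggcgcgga

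Libraries held 40740643 to 68530912 counts in wild-type and 39628101 to 57595675 in ΔAgo2 cells. Wild-type replicate 4 stood apart from the other libraries. Its median Spearman correlation with its own group over genes was 0.864, where the 3 other wild-type libraries had 0.948 to 0.961 and ΔAgo2 libraries 0.985 to 0.986. Counts on mitochondrial genes made up 0.540% of its total and 2.39% to 4.51% elsewhere. All comparisons are therefore given with all 8 libraries and with 7, without wild-type replicate 4. Ago2 itself was at 306.02, 270, 520 and 119 CPM (counts scaled to a common library total with TMM factors) in wild-type replicates 1 to 4, and at 389, 293, 408 and 316 CPM in ΔAgo2 replicates 1 to 4. Its RNA level thus did not separate the groups and does not check the labels. The study probed Ago2 protein in its LLC ΔAgo2 cells by western blot, which was not examined here. It reports that the growth of LLC cells in culture was unchanged by the deletion. Of the carcinoma markers, the keratins Krt8 and Krt18 were counted in every library, at 38.2 to 654 and 75.2 to 601 CPM. The keratins Krt7 and Krt19 were at 0.147 to 5.31 and 0.149 to 3.54 CPM. The adhesion genes Epcam and Cdh1 were at or below 0.0203 and 0.183 CPM. Of the fibroblast and mesenchymal markers, Vim was at 3072 to 6076 and Pdgfra at 11.7 to 85.7 CPM. Col1a1, Col1a2 and Pdgfrb were at or below 3.01, 1.12 and 6.86 CPM. The leukocyte markers Ptprc, Cd3e and Adgre1 were at or below 0.0475 CPM, the lung epithelium markers Nkx2-1, Sftpb and Scgb1a1 had no count, and Sftpc was at or below 0.0149 CPM.

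In ΔAgo2 against wild-type cells with all 8 libraries, none of the 42 genes passed an adjusted p of 0.05, against 0.295% of the 14228 genes tested (edgeR's quasi-likelihood test, two-sided, Benjamini-Hochberg adjustment over all genes tested). All 42 passed the filter on low counts. At an unadjusted p of 0.05, 2 were higher and 0 lower, which is 2 of 42 against 7.34% of all genes, and DESeq2 called 0 after adjustment. The median log2 fold change of the 42 was 0.12, with 26 above 0, beside a median of −0.11 over all genes tested. The median standard error of a member was 0.42 on the log2 scale, and the values farthest from 0, 0.91 for Cdk6 and −0.95 for Ccne1, did not pass either.

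Without wild-type replicate 4, 1 of the 42 genes passed, Ccnd1, against 0.777% of 14541 genes. At an unadjusted p of 0.05, 5 were higher and 1 lower, against 12.6% of all genes. The median log2 fold change was 0.21, with 30 above 0, and that over all genes was −0.037. The median standard error fell to 0.26. With 7 libraries DESeq2 called 2 of the 42, Ccnd1 and Cdk6, beside 687 of 27560 genes with a count. In both settings the share of the 42 that passed is small, and with 0 to 2 genes it is no result about the list.

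**Figure D1:**
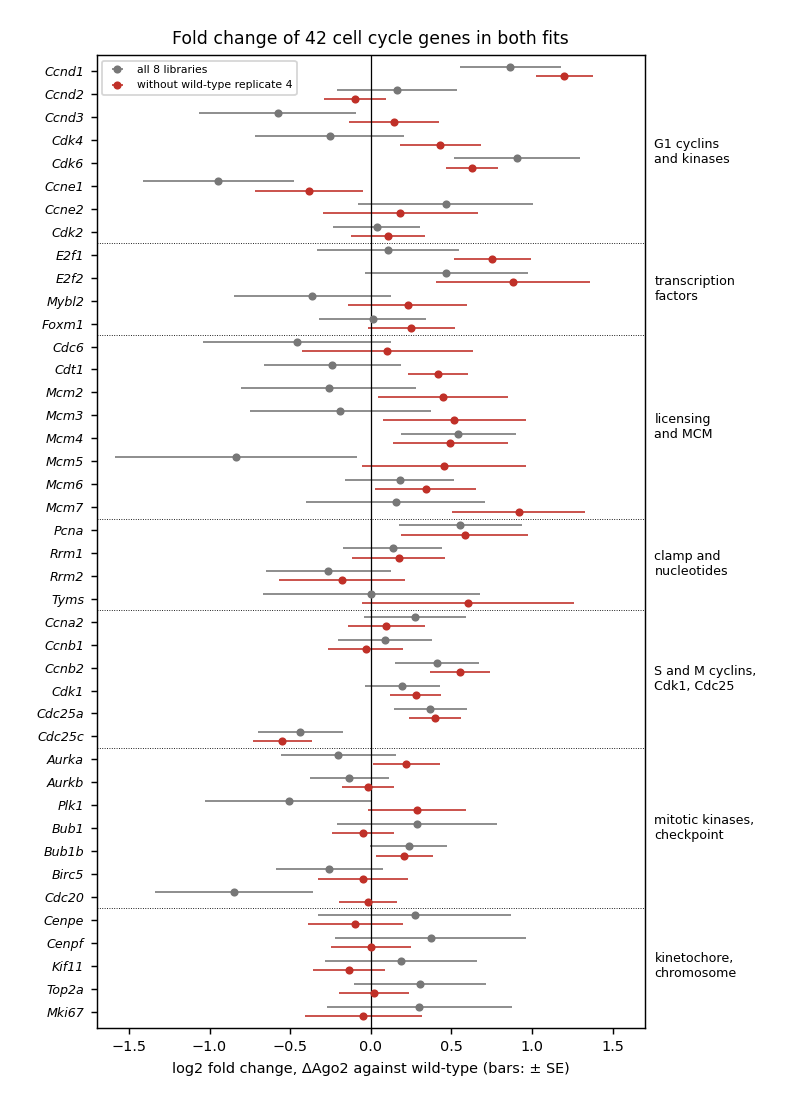
Log2 fold change of ΔAgo2 against wild-type for the 42 genes, by role group, with all 8 libraries (grey) and without wild-type replicate 4 (red). Points are fitted values and bars ± 1 standard error. Ccnd1 is at 0.87 and 1.20, and all 8 licensing genes lie above 0 in red while 5 of them lie below 0 in grey.

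Ccnd1 encodes cyclin D1, the partner of Cdk4 and Cdk6 in G1, and lies on chromosome 7 from 144929931 to 144939925 on the minus strand (GRCm38). It was at 527, 530, 528 and 1068 CPM in wild-type replicates 1 to 4, and at 1330, 1306, 998 and 1201 CPM in ΔAgo2 replicates 1 to 4. Wild-type replicates 1 to 3 lay within a 1.01-fold range, and wild-type replicate 4 lay among the ΔAgo2 libraries, so the groups overlapped with 8 libraries and did not with 7. The log2 fold change was 0.87 (SE 0.32, adjusted p = 0.540, edgeR) with 8 libraries. Without wild-type replicate 4 it was 1.20 (SE 0.18, adjusted p = 0.0261, edgeR), a 2.30-fold higher level. The exact permutation test on log2 CPM, two-sided, gave p = 0.0571 over 70 splits with 8 libraries and p = 0.0286 over 35 splits with 7, the smallest that 3 against 4 can give. In the deposited TPM (counts scaled by gene length and library total), wild-type replicates were at 345, 441, 384 and 503 and ΔAgo2 replicates at 1066, 1007, 717 and 901, so on that scale all 8 libraries separated. With a per-library correction for GC content the 8-library fit gave 1.08 (adjusted p = 0.0452, edgeR), whereas on log2(TPM + 1) it did not pass (1.14, adjusted p = 0.0978, limma). The 7-library call was lost on leaving out wild-type replicate 1 (adjusted p = 0.0574) or any ΔAgo2 library (0.0578 to 0.121) and with the filter on CPM (0.0572). The log2 fold change was between 1.15 and 1.29 on leaving out single libraries (edgeR). DESeq2 gave 0.87 (adjusted p = 0.226) with 8 libraries and 1.21 (adjusted p = 3.07e-09) with 7.

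The other D-type cyclins did not follow Ccnd1. Ccnd2 had log2 fold changes of 0.16 and −0.098 and Ccnd3 of −0.58 and 0.15, with 8 and 7 libraries. Per length, Ccnd1 was the most abundant of the 42 genes, with a mean of 670 TPM over 8 libraries, though Pcna and Cdk4 were above it in wild-type replicate 2 and Cdk4 and Cdc20 in wild-type replicate 4. Cdk6, a kinase partner of the D-type cyclins, was at 110, 91.9, 85.9 and 26.5 CPM in wild-type and 159, 158, 151 and 121 CPM in ΔAgo2 replicates. The groups did not overlap with 8 or with 7 libraries. Its log2 fold change was 0.91 (SE 0.39, adjusted p = 0.664) with 8 and 0.63 (SE 0.16, adjusted p = 0.145) with 7 libraries by edgeR, and neither passed. By DESeq2 Cdk6 did pass with 7 libraries, at a log2 fold change of 0.63. Cdk4, the other partner, had 0.43 with 7 libraries (SE 0.25) and −0.26 with 8, where wild-type replicate 4 was the highest of all at 959 CPM. Of the G1/S cyclins, Ccne1 had −0.95 and −0.38 and Ccne2 0.46 and 0.18 with 8 and 7 libraries, and Cdk2 0.037 and 0.11, all with adjusted p above 0.6 (edgeR).

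Counted by overlap of the CPM values, 2 of the 42 genes were separated upward with 8 libraries, Cdk6 and Cdc25a, and 0 downward, against 6.07% of all genes. With 7 libraries 5 were separated upward (Ccnd1, Cdk6, E2f1, Ccnb2 and Cdc25a) and 1 downward (Cdc25c). That is 6 of 42 against 12.1% of all genes, and 5 of 42 upward against 5.9%. In TPM, E2f1, Ccnb2 and Cdc25a overlapped with 7 libraries, as wild-type replicate 2 lay above the lowest ΔAgo2 library. Ccnd1, Cdk6 and Cdc25c stayed apart.

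**Figure D2:**
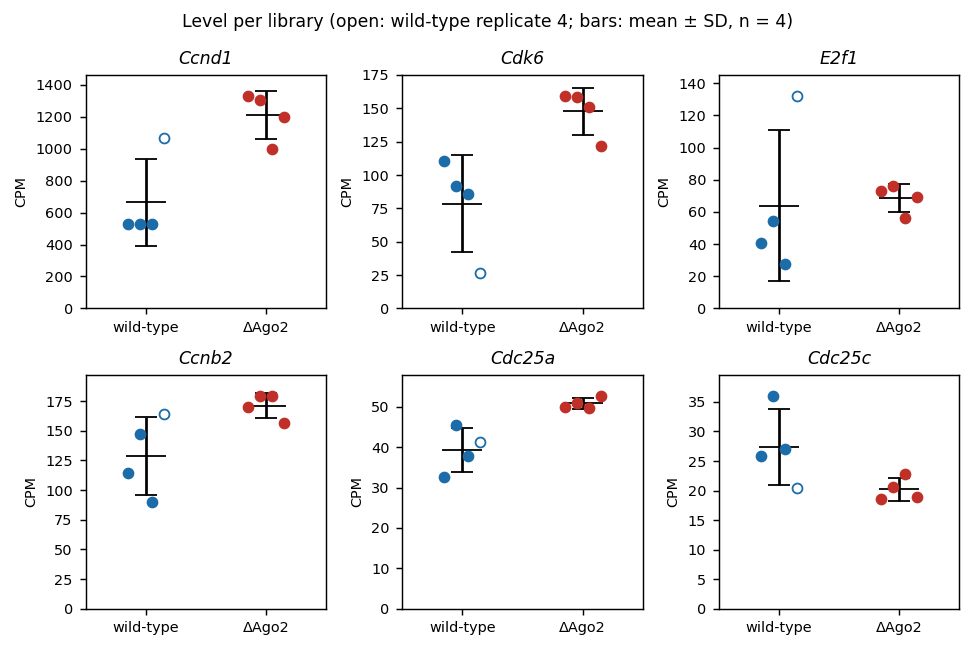
CPM per library of the 6 genes whose groups did not overlap in at least 1 of the settings (Cdk6 and Cdc25a in both, the others with 7 libraries), wild-type in blue and ΔAgo2 in red, with wild-type replicate 4 as an open circle and bars for mean ± SD (n = 4). The open circle lies among the ΔAgo2 libraries for Ccnd1 and Ccnb2, above them for E2f1 and below all other libraries for Cdk6.

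E2f1, the activating E2F factor of the G1/S step, was at 40.9, 54.4, 27.4 and 132 CPM in wild-type and 73.2, 76.0, 56.0 and 69.6 CPM in ΔAgo2 replicates. In CPM wild-type replicate 4 was the highest of the 8 and the other wild-type libraries the lowest 3. In TPM wild-type replicate 2 lay above ΔAgo2 replicate 3 (67.5 against 60.1). The log2 fold change was 0.11 (SE 0.44) with 8 and 0.75 (SE 0.24, adjusted p = 0.236, edgeR) with 7 libraries. E2f2, Mybl2 (B-Myb) and Foxm1 had 0.88, 0.23 and 0.25 with 7 libraries, none of which passed. All 4 factors had their highest CPM in wild-type replicate 4, whereas in TPM only E2f1 did.

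The licensing group holds Cdc6 and Cdt1, which load the helicase at origins, and Mcm2 to Mcm7, its subunits. With 8 libraries its median log2 fold change was −0.21, with 3 of 8 genes above 0, and with 7 it was 0.45, with 8 of 8 above 0. The 8-library median turned to 0.20 with limma-voom, 0.39 on log2(TPM + 1) and 0.10 with GC correction, while the 7-library median stayed above 0 under each of these. No gene of the group passed in either. Mcm3, its most abundant gene per length, was at 143, 374, 87.1 and 711 CPM in wild-type and 299, 311, 201 and 341 CPM in ΔAgo2 replicates. All 4 ΔAgo2 libraries lay between wild-type replicates 1 and 3 below and wild-type replicates 2 and 4 above. Mcm5, named after its values were seen, had the widest wild-type range, 17.01-fold, with 69.9, 250, 49.4 and 840 CPM against 186, 187, 113 and 190 CPM in ΔAgo2 cells.

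Of the clamp and nucleotide genes, Pcna was at 132, 308.4, 83.1 and 188 CPM in wild-type and 255, 277, 209 and 303.8 CPM in ΔAgo2 replicates. All 4 ΔAgo2 values lay above those of wild-type replicates 1, 3 and 4 and below that of replicate 2. The log2 fold change was 0.55 (SE 0.38, adjusted p = 0.746) with 8 and 0.58 (SE 0.39, adjusted p = 0.573) with 7 libraries (edgeR), and with GC correction the 8-library value turned to −0.15, and to −0.043 with GC and length correction. Rrm1 and Rrm2, the subunits of ribonucleotide reductase, had 0.17 and −0.18 with 7 libraries. Tyms, thymidylate synthase, had 0.60 with a standard error of 0.65.

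The S and M cyclins with Cdk1 and the Cdc25 phosphatases varied least among wild-type libraries and hold 3 of the 6 genes without overlap in CPM. Ccnb2, a mitotic cyclin, was at 115, 147, 90.1 and 164 CPM in wild-type and 170, 179, 179 and 156 CPM in ΔAgo2 replicates. In CPM only wild-type replicate 4 reached the ΔAgo2 range. In TPM only wild-type replicate 2 did, at 375 against 361 in ΔAgo2 replicate 4. The log2 fold change was 0.41 (SE 0.26) with 8 and 0.55 (SE 0.19, adjusted p = 0.265, edgeR) with 7 libraries. Cdc25a was at 32.5, 45.6, 37.9 and 41.4 CPM in wild-type and 49.9, 51.0, 49.8 and 52.7 CPM in ΔAgo2 replicates. In CPM all ΔAgo2 values lay above all wild-type values, within a 1.06-fold range. In TPM wild-type replicate 2 lay above ΔAgo2 replicate 3. The log2 fold changes were 0.37 (SE 0.23, adjusted p = 0.740) with 8 and 0.40 (SE 0.16, adjusted p = 0.357) with 7 libraries (edgeR). Cdc25c, which activates Cdk1 at mitotic entry, was at 25.9, 36.0, 27.1 and 20.4 CPM in wild-type and 18.5, 20.5, 22.8 and 19.0 CPM in ΔAgo2 replicates. It was the 1 gene with the ΔAgo2 libraries below wild-type replicates 1 to 3, at −0.55 (SE 0.18, adjusted p = 0.263, edgeR), and wild-type replicate 4 lay within the ΔAgo2 range. Ccna2, Ccnb1 and Cdk1 had 0.097, −0.032 and 0.28 with 7 libraries.

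The mitotic kinases and checkpoint genes stayed near 0 with 7 libraries, from −0.049 to 0.29, with a median of −0.015. They hold Aurka, Aurkb and Plk1 (kinases of the spindle and of chromosome alignment), Bub1 and Bub1b (spindle checkpoint), Birc5 (survivin) and Cdc20. Cdc20 was at 100.5, 134, 82.8 and 435 CPM in wild-type and 101, 107, 102 and 107 CPM in ΔAgo2 replicates. Its log2 fold change was −0.85 (SE 0.49, adjusted p = 0.733) with 8 and −0.015 (SE 0.18, adjusted p = 0.983) with 7 libraries (edgeR), so the 8-library value rested on wild-type replicate 4.

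The kinetochore and chromosome genes, Cenpe, Cenpf, Kif11, Top2a and Mki67, lay between −0.14 and 0.022 with 7 libraries and between 0.19 and 0.37 with 8. Top2a, topoisomerase II, was at 600, 961, 582 and 197 CPM in wild-type and 770, 715, 728 and 679 CPM in ΔAgo2 replicates, a log2 fold change of 0.022 (SE 0.22, adjusted p = 0.978, edgeR) with 7 libraries. Mki67, the Ki-67 antigen used to mark cycling cells, named after its values were seen, was at 205, 634, 261 and 52.2 CPM in wild-type and 410, 371, 298 and 343 CPM in ΔAgo2 replicates. Its ΔAgo2 values all lay inside the range of wild-type replicates 1 to 3.

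**Figure D3:**
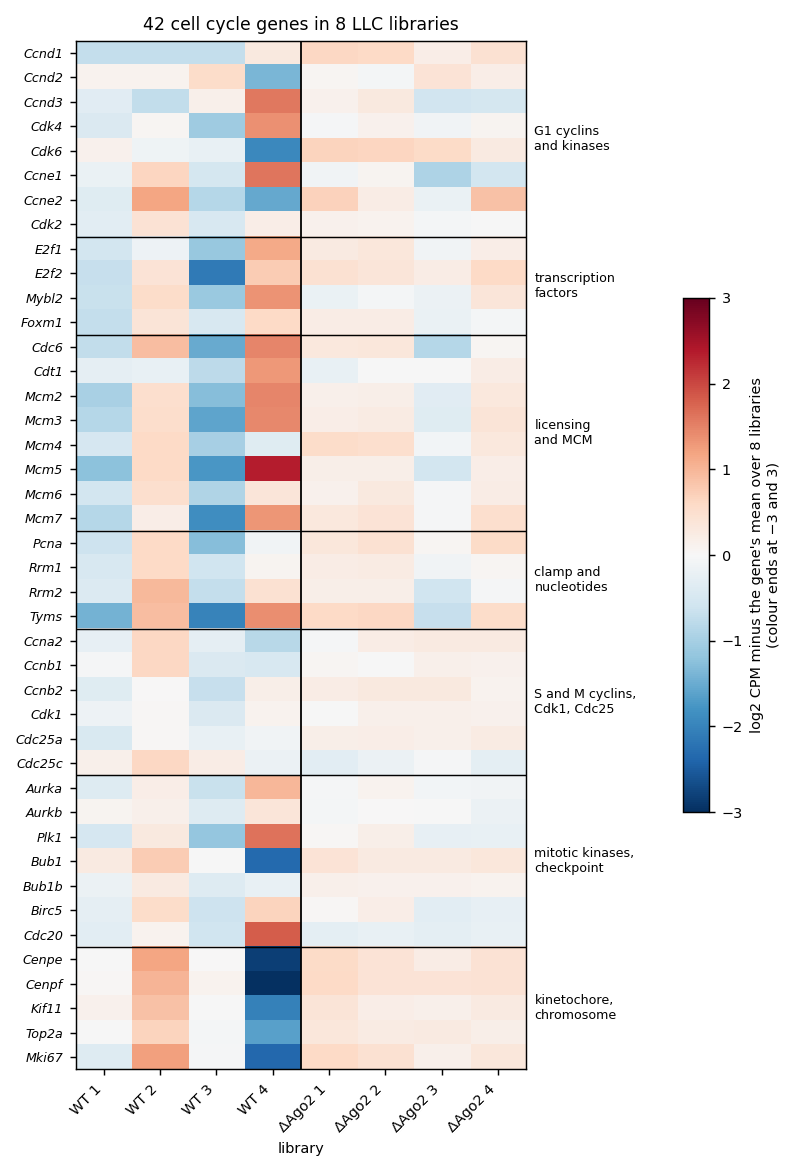
Log2 CPM of each of the 42 genes minus its mean over the 8 libraries, by role group (rows) and library (columns), with red above and blue below the mean. Wild-type replicates 1 and 3 are mostly blue in the licensing group, wild-type replicate 2 mostly red, and wild-type replicate 4 runs from red in licensing to dark blue in the kinetochore group. The 4 ΔAgo2 columns are pale.

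The 42 genes differed widely between wild-type libraries, and mostly in the same direction. Among wild-type replicates 1 to 3, the highest over the lowest CPM had a median of 2.10 over the 42 genes, from 1.01 for Ccnd1 to 7.61 for Tyms. The median was 3.80 in the licensing group and 3.47 in the clamp and nucleotide group. It was 1.97 in the kinetochore group, 1.71 in the mitotic kinase group and 1.52 among the S and M cyclins. Tyms, at 11.7, 59.5 and 7.82 CPM in these 3 libraries, and E2f2, at 11.1, 23.7 and 4.10 CPM, had the widest ranges, and both were named after their values were seen.

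Wild-type replicate 2 held the highest level of replicates 1 to 3 in 39 of the 42 genes (92.9%), against 35.0% of all genes tested. The 3 exceptions were the D-type cyclins Ccnd2 and Ccnd3 and their kinase Cdk6. The 42 genes took 0.983% of the counts in wild-type replicate 2, 0.525% in replicate 1 and 0.465% in replicate 3, and 0.702% to 0.880% in the ΔAgo2 libraries. Mitochondrial genes took 2.98% of the counts in wild-type replicate 2 and 4.51% and 4.00% in replicates 1 and 3, and the part of this in the result was not tested.

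Among ΔAgo2 libraries the same fold range had a median of 1.32 and a maximum of 2.52, again for Tyms. The SD of log2 CPM was lower in ΔAgo2 than in wild-type cells for 42 of 42 genes, against 93.1% of all genes. Against wild-type replicates 1 to 3 it was lower for 41 of 42, Ccnd1 being the exception, against 78.8% of all genes. The median SD of the 42 was 0.94 over the 4 wild-type libraries, 0.56 over replicates 1 to 3 and 0.18 over the ΔAgo2 libraries. All 4 ΔAgo2 values lay inside the range of the 4 wild-type libraries for 35 of 42 genes and inside that of replicates 1 to 3 for 28. ΔAgo2 replicate 3 was the lowest of its group in 28 of 42 genes. The shares over all genes were not computed for these counts inside the range and for the lowest library. They cannot be read as a trait of the list.

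**Figure D4:**
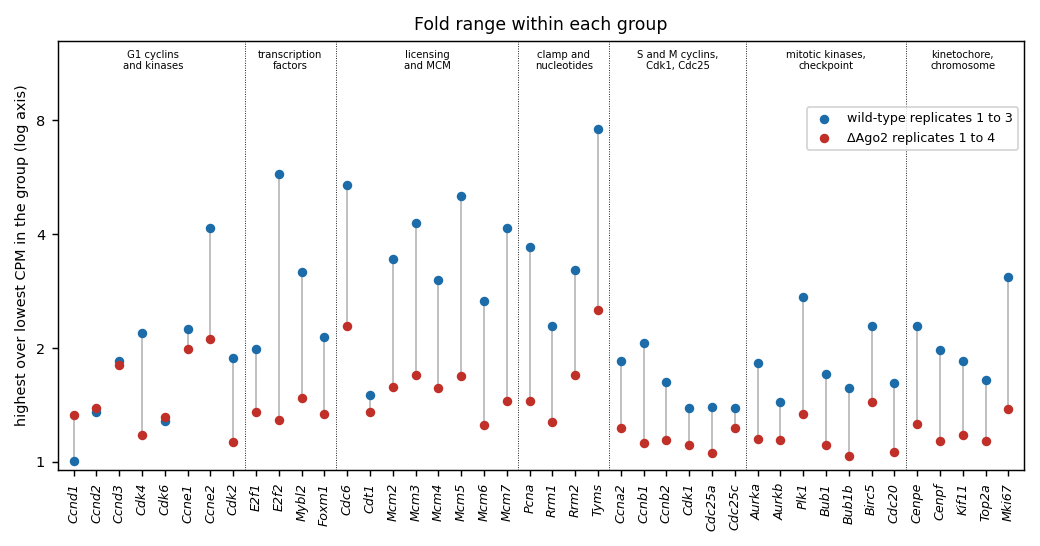
Highest over lowest CPM within wild-type replicates 1 to 3 (blue) and within the 4 ΔAgo2 libraries (red) for each gene, on a log axis, by role group. Blue lies far above red in the licensing, clamp and nucleotide groups, and Tyms has the highest value of both colours, 7.61 and 2.52.

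The E2F letters and the wild-type range can be set side by side. The 10 genes with E2F letters in the window had a median range of 3.41 among wild-type replicates 1 to 3, from 1.39 to 5.78. The 24 without had 2.12, from 1.28 to 7.61. Of the 10, 6 were licensing and MCM genes, a group with a median range of 3.80, so letters and role group cannot be told apart. Tyms, Pcna, Rrm1 and Rrm2 had no E2F letters in the window and were among those with a range above 2. For the CHR letters the medians were 1.84 in 14 genes with and 2.29 in 20 without. These are descriptions over genes of shared libraries.

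The balance of S phase to mitosis genes was compared per length. The summed TPM of the licensing, clamp and nucleotide genes over that of the mitotic kinase, checkpoint, kinetochore and chromosome genes was 0.867, 1.26, 0.699 and 1.65 in wild-type replicates 1 to 4. In ΔAgo2 replicates 1 to 4 it was 1.32, 1.39, 1.08 and 1.54. The ΔAgo2 libraries lay inside the range of the 4 wild-type libraries, with wild-type replicate 2 also inside the ΔAgo2 range. The top of that wild-type range was replicate 4. Without it, wild-type ran from 0.699 to 1.26, with ΔAgo2 replicates 1, 2 and 4 above and ΔAgo2 replicate 3 inside. Over the other replication and mitosis genes, listed apart from the 42, the ratio was 0.574, 0.694, 0.467 and 1.15 in wild-type replicates. It was 0.689, 0.714, 0.613 and 0.750 in ΔAgo2 replicates, and wild-type replicates 1 and 3 were again the lowest. Without wild-type replicate 4, ΔAgo2 replicates 2 and 4 lay above the other wild-type libraries and ΔAgo2 replicates 1 and 3 inside their range. The difference in balance was not tested.

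Because wild-type replicate 2 lay above replicates 1 and 3, the 7-library result depended on it. Leaving it out as well, a choice looked at after the values were seen, left 2 wild-type libraries (replicates 1 and 3) against 4 ΔAgo2 libraries. Wild-type replicate 2 was the highest of replicates 1 to 3 in 39 of the 42 genes, so leaving it out raises most fold changes by itself. The calls that follow show this dependence and are no test of the genes. In this fit 12 of 42 genes were higher and 0 lower at an adjusted p of 0.05, against 3.67% of 14863 genes, and the median log2 fold change was 0.58 (edgeR). The 12 were Ccnd1, E2f1, E2f2, Mcm2, Mcm3, Mcm4, Mcm5, Mcm6, Mcm7, Pcna, Tyms and Ccnb2, with log2 fold changes from 0.77 to 2.07. Leaving out wild-type replicate 1 in its place gave 0 genes and a median of 0.085, and leaving out replicate 3 gave 1 gene and a median of 0.061. With wild-type replicate 4 kept, leaving out replicate 2 gave 0 genes and a median of 0.22. In the fit without wild-type replicates 2 and 4, Mcm5 had 1.53 (SE 0.26) and Mcm7 1.62 (SE 0.29). With wild-type replicate 2 present they had 0.46 (SE 0.51) and 0.92 (SE 0.41), so 1 library decided whether 6 of the 8 licensing genes passed.

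Wild-type replicate 4 departed from replicates 1 to 3 in opposite directions by role. In CPM it was the highest of the 8 libraries in 19 genes and the lowest in 11. The licensing group was higher by a median of 1.98 on the log2 scale and the transcription factors by 1.65. All 5 kinetochore and chromosome genes were the lowest there, with a median of −2.63, such as Cenpf at 13.8 CPM against 114, 225 and 120 CPM and Cenpe at 11.4 CPM against 80.6, 184 and 81.6 CPM. Within the checkpoint group, Bub1 was at 17.7 CPM against 107, 150 and 88.1 CPM, while Plk1 was at 324 CPM against 73.8, 127 and 46.7 CPM. Cenpf, Cenpe, Bub1 and Plk1 were named after their values were seen.

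**Figure D5:**
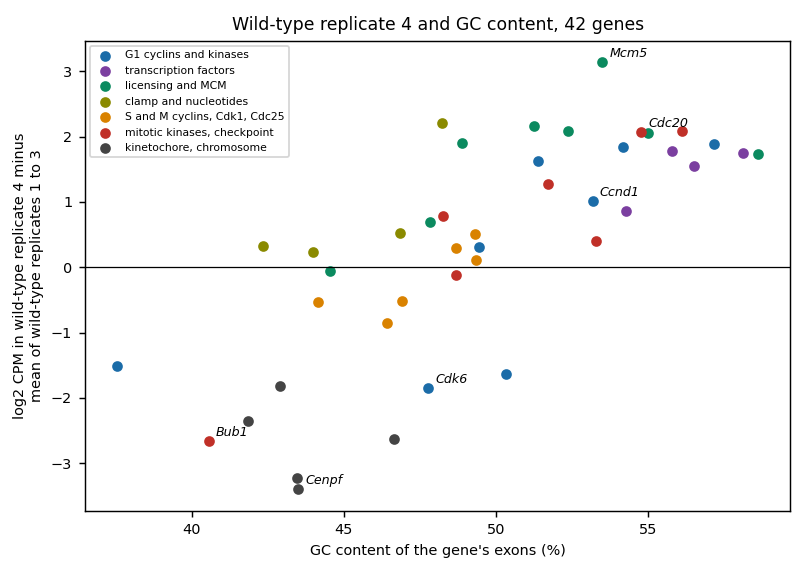
Log2 CPM of wild-type replicate 4 minus the mean of wild-type replicates 1 to 3 against the GC content of the gene's exons in percent, for the 42 genes, coloured by role group. Points rise from Cenpf at −3.40 to Mcm5 at 3.14, and genes below 45% GC are mostly below 0.

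This departure moved with GC content. The Spearman correlation of the departure with the GC content of exons was 0.76 over the 42 genes and 0.74 over 14226 genes tested, and with exon length −0.42 and −0.31, where all points share the same 4 libraries. The kinetochore genes lie at 41.8% to 46.7% GC, and Mcm5 at 53.5%. With the correction for GC content the 8-library fit called 1 of 42, Ccnd1, against 0.562% of 14228 genes, with a median of 0.076 for the 42 and −0.085 for all genes.

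Other genes of the same pathways, listed with earlier results of these data known, gave 0 calls in both settings by edgeR and by DESeq2. At an unadjusted p of 0.05 with 7 libraries, 1 replication gene was higher, and 1 gene each of the E2F, replication and mitosis lists was lower (edgeR), beside the 12.6% of all genes. Of 16 further E2F, pocket protein and MuvB genes, 10 were above 0 with 8 and with 7 libraries, with medians of 0.13 and 0.087. E2f8, a repressor E2F, had the highest value with 8 libraries, 0.54 (adjusted p = 0.739), and Lin37, a MuvB subunit, the lowest, −0.69 (adjusted p = 0.739, edgeR). Of 41 further replication genes, 22 were above 0 with 8 libraries, with a median of 0.092, and 34 with 7, with a median of 0.29, where 41.2% and 45.8% of all genes tested were above 0. Pola1, the catalytic subunit of polymerase alpha, had 0.94 with 8 libraries (SE 0.54) and 0.60 with 7, and Dbf4, the activator of the Cdc7 kinase, −0.74 (SE 0.58) and −1.09 (adjusted p = 0.237, edgeR). Dbf4 was at 159, 291, 82.4 and 23.3 CPM in wild-type and at 86.1, 81.8, 81.6 and 82.5 CPM in ΔAgo2 replicates, so the ΔAgo2 libraries were almost equal and wild-type replicate 3 lay beside them. Of 50 further mitosis and cytokinesis genes, 33 were above 0 with 8 libraries and 27 with 7, with medians of 0.18 and 0.039. Kif23, a motor of cytokinesis, and Spc24, a kinetochore subunit, had the highest and lowest values with 8 libraries, 0.57 and −0.79.

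The inhibitors of cyclin-dependent kinases gave 0 calls as well, with 2 lower at an unadjusted p of 0.05 with 8 libraries and 0 with 7, beside 7.34% and 12.6% of all genes (edgeR). Of the INK4 genes, which encode blockers of Cdk4 and Cdk6, Cdkn2a and Cdkn2b had no count in any library. Cdkn2c and Cdkn2d, also INK4 genes, were counted in every library. Cdkn1c, of the CIP/KIP family, had at most 2 counts. Of the 4 inhibitors that were tested, 3 were below 0 in both settings. Cdkn1a (p21) was at 556, 350, 719 and 759 CPM in wild-type and 331, 357, 468 and 267 CPM in ΔAgo2 replicates, with log2 fold changes of −0.74 (SE 0.32, adjusted p = 0.657) and −0.60 (SE 0.27, adjusted p = 0.409, edgeR). Cdkn1a was lowest in wild-type replicate 2 among wild-type libraries, where most of the 42 genes were higher than in replicates 1 and 3. Cdkn2c had −0.71 and −0.44, Cdkn2d −0.59 and −0.25, and Cdkn1b (p27) 0.32 and 0.10, and none passed.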

How the data were processed

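RNA-seq of 8 libraries of cultured LLC cells was used, 4 wild-type and 4 ΔAgo2, grouped by their labels. The authors aligned reads to ribosomal RNA and then to mm10 (STAR per the submitters' processing notes) and counted them with featureCounts. They deposited whole-number counts per gene without normalization, and TPM, scaled by gene length and library total. The annotation release and the strand setting are not given in the sources used here, so overlapping and antisense genes could share reads. Genes were named with GENCODE vM21 (GRCm38), matched on identifiers without version, and 93 of 55487 had no match.

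Counts were filtered with filterByExpr, scaled with TMM and tested with edgeR 4.0.16 (R 4.3.3), quasi-likelihood, two-sided, genotype only, with Benjamini-Hochberg adjustment, on all 8 libraries and again without wild-type replicate 4. Standard errors are the log2 fold change over the square root of F. GC correction fitted a smooth curve (lowess, span 0.3) on GC content to each library's deviation from the gene's mean log level over libraries. The curve entered the edgeR model as an offset. The GC content of exons was taken over each gene's transcripts, weighted by length. DESeq2 1.42.0, limma 3.58.1 (on voom values and on log2 of TPM + 1 or + 0.1), other scalings and filters, a replicate block and each library left out in turn were alternatives. The scripts were tested on simulated counts. Library totals were 39628101 to 68530912 counts, and precision was set mainly by the spread between libraries. The same-numbered libraries were not treated as pairs, since their deviations from the group means correlated at 0.060 on average. The values were −0.12, −0.046, 0.38 and 0.035 for replicates 1 to 4, and a shared effect in replicate 3 was not tested.

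The members and lists were chosen with earlier results of these data known. Values per library were given for genes with an adjusted p under 0.05, for those whose groups did not overlap, for the most abundant gene of each role group and for fold changes beyond 1 on the log2 scale. They were also given for Dbf4 and Cdkn1a, each the lowest of its list, and for Mki67, Mcm5, Tyms, E2f2, Cenpf, Cenpe, Bub1 and Plk1, chosen after their values were seen. Of each other list, the gene with the highest and lowest fold change with 8 libraries was named, and all other genes were summarised. Tumor libraries were not used here, and the result for 1 marker gene is not reported here.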

Additional observations from a re-analysis of the deposited data

Results flagged for a closer look

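In each group of 4 libraries, the gap between the highest or lowest library and its nearest neighbour was taken as a ratio to the group's whole range, for log2 CPM of the 42 genes and for 5 measures of whole libraries. Of 94 groups tested, 6 exceeded Dixon's critical value for 4 samples, and chance gives about 1 in 20. In the wild-type group, Ccnd1 was set apart by its highest library, replicate 4 (ratio 0.990), since replicates 1 to 3 were nearly equal. In the ΔAgo2 group, replicate 3 was the lowest and set apart for Mcm5 (0.952) and Tyms (0.947), both genes of S phase. ΔAgo2 replicate 1 was the lowest and set apart for Ccna2 (0.842) and Cdk1 (0.933), the cyclin and kinase of S phase and mitosis, and the highest for Cenpf (0.857). The cause of these gaps was not tested.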

How the results depend on the processing

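With 8 libraries, 0 of the 42 genes had an adjusted p under 0.05, which became 1, Ccnd1, with limma-voom with sample weights, with GC correction and with GC and length correction, and 2 at an unadjusted p. It was 0 to 1 on leaving out single libraries, the 1 being Ccnd1 without wild-type replicate 4. The median log2 fold change of 0.12 became 0.45 on log2(TPM + 1) and 0.46 on log2(TPM + 0.1), where the median of all genes moved from −0.11 to 0.15 and 0.22, and it stayed within the spread between libraries under the other alternatives. Without wild-type replicate 4, 1 gene passed, and 2 passed with DESeq2 (Ccnd1 and Cdk6), 0 with the CPM filter, 0 with the replicate block, 0 at an adjusted p under 0.01 and 6 at an unadjusted p. Leaving out single libraries gave 0 to 12 genes and medians of 0.061 to 0.58, the 12 and 0.58 without wild-type replicate 2. In those fits the other E2F, pocket protein and MuvB genes gave 0 to 1 calls, replication genes 0 to 8 and mitosis genes 0 to 3, the most in each case without wild-type replicate 2. The cause of these changes was not tested.

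The direction of some genes turned under some settings. With 8 libraries Mcm3 (−0.19) became 0.24 with limma-voom, 0.85 with sample weights, 0.24 with the replicate block, 0.44 and 0.45 on log2 TPM, 0.056 with GC correction, 0.35 with GC correction and the replicate block and 0.10 with GC and length correction. Pcna (0.55) became −0.15 with GC correction and −0.043 with GC and length correction, and Spc24 (−0.79) 0.19 with sample weights. Without wild-type replicate 4, Cdc20 (−0.015) became 0.016 with limma-voom, 0.035 with sample weights, 0.0033 with the replicate block and 0.055 and 0.056 on log2 TPM. Spc24 (−0.11) became 0.040, 0.23, 0.077 and 0.083 with limma-voom, sample weights and both TPM settings, and Cdkn1b (0.10) −0.0033 with sample weights. Leaving out single libraries gave −0.14 to 0.75 for E2f1 and −0.50 to 0.52 for Mcm3 with 8 libraries. With 7 it gave −0.16 to 0.21 for Cdc20, −0.097 to 0.31 for Top2a, −0.39 to 0.55 for Spc24 and −0.032 to 0.30 for Cdkn1b.

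The replicate numbers were not taken as a pairing, as 1 of 8 libraries correlated best with the library of its own number. With the replicate block, 18 genes passed in place of 42 with 8 libraries and 51 in place of 113 with 7, and Ccnd1 did not pass (adjusted p = 0.145 with 7 libraries, edgeR). With GC correction and the replicate block, 0 of the 42 genes passed with 8 libraries, and Ccnd1 had 1.08 (adjusted p = 0.127, edgeR). Settings other than GC and length correction were repeated on 7 libraries after the data were seen, and GC and length correction was itself added then. The libraries were deep and every member was counted in all of them, so depth does not limit these values, and the spread between 4 libraries does.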
